A study of Eriocheir sinensis with 6 samples.

Results

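In walking-leg muscle of the Chinese mitten crab (Eriocheir sinensis) at the molt, 1980 stretches of accessible chromatin were found in all 3 animals at a distance of 2 to 10 kb upstream of an annotated gene. They were chosen by position and by a called peak in every animal. ATAC-seq peaks of the 3 libraries were merged, and 29787 of 68059 merged regions were touched by a peak of every library. A shared region was kept if it touched no listed gene body, lay over 2 kb from every listed start and had its midpoint 2 to 10 kb upstream of the start of an annotated gene. A listed start is the edge of a gene model. Whether transcription begins there was not tested, so upstream and promoter regions are named by their distance from that edge alone. The 1980 upstream regions are 6.65% of all shared regions and 12.7% of the 15532 shared regions outside gene bodies and start regions. RNA levels had no part in the choice. Peak strength entered only through the caller's threshold, which had to be passed in all 3 libraries.

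The samples were 6 libraries from 3 wild-type, untreated juvenile male crabs, with 1 ATAC-seq and 1 RNA-seq library made from the muscle of each. The libraries are named Mu_E_1, Mu_E_2 and Mu_E_3, where E is the study's letter for the molt period. The series' design text calls the stage D and the sample titles call it E, and the titles were followed. There is 1 condition, so the comparisons here are between classes of regions and of genes, with the crabs as replicates.

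ATAC-seq uses a transposase that cuts DNA where it is not packed tightly by nucleosomes, and a peak is a place with more cuts than its surroundings. In animal genomes the DNA just before a gene carries its promoter, and accessible sites further upstream are known to include enhancers, which bind transcription factors and raise the output of a gene from a distance, as well as silencers and insulators. Accessibility alone does not tell these apart. Muscle is known for genes with very high and cell-type-restricted output, such as those of the contractile apparatus, and upstream enhancers of such genes are well studied in vertebrates and in Drosophila. The gene identifiers used here carry no gene names in the files, except for a few receptors that the study names, so genes are given by identifier, no function is assigned and the tissue label was not checked against marker genes.

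The peak lists held 44610 to 52473 peaks per library. RNA-seq levels were given as FPKM, a fragment count scaled by exon length and library depth. They covered 21314 annotated genes and 7357 further genes, whose origin the paper's methods do not describe. From 7088747 to 7788537 fragments per RNA-seq library were recovered from the FPKM. The depth behind the authors' FPKM was 0.573, 0.514 and 1.43 times the recovered fragments in Mu_E_1, Mu_E_2 and Mu_E_3, so a gene's FPKM in Mu_E_3 is lower than its fragments alone would give, and an order of that library against the others depends on this scale. In whole muscle, fewer cells of a type and less RNA or accessibility per cell cannot be told apart.

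Reproducibility came first, since the rule asked for a peak in every animal. By the position rule alone, 4674 merged regions lay 2 to 10 kb upstream of an annotated start. Of these, 1716 were touched by 1 library, 978 by 2 libraries and 1980 by all 3, so 42.4% were shared by all animals. The same share was 55.1% for the 13760 merged regions within 2 kb of a start. It was 39.5% for the 14004 merged regions over 20 kb from every gene, on sequences with a listed gene. The share of the upstream regions thus lay between those of promoter and distal regions. These are shares of single merged sets, with no replicate and no test.

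The 1980 upstream regions covered 1.30 Mb. Their width had a median of 578 bp, with quartiles of 412 and 810 bp and extremes of 209 and 2723 bp. They held 2100, 2119 and 2035 peaks of Mu_E_1, Mu_E_2 and Mu_E_3, and 2953, 2833 and 3020 summits. Most regions had a single summit, and 35.6%, 31.9% and 36.9% had more than 1. The strongest summits of the 3 libraries lay within 100 bp of each other in 73.7% of the regions, with a median spread of 36 bp, so the same position was called in each animal in most cases.

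All 72 numbered chromosomes of the assembly carried upstream regions, from 5 to 62 each. On them lay 90.6% of the regions, beside 96.8% of all annotated genes. Per 100 annotated genes, a chromosome carried a median of 8.44 regions, with a range of 4.23 to 19.0. The midpoint lay a median of 5.59 kb from the nearest start it was upstream of, with quartiles of 3.69 and 7.66 kb. No listed gene lay wholly between the region and a start in 95.8% of the cases. Here, and in the later alternative with no gene between, genes that overlap the start itself were not counted. Neighbouring upstream regions on a sequence were a median of 186 kb apart, but 268 neighbours lay within 2 kb of each other. Upstream of exactly 1 gene were 1620 regions, of exactly 2 genes 306, and of 3 or more genes 54. In 144 cases the region sat between a pair of starts that pointed away from each other with no listed gene in between, so that it was upstream of both.

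The limits of the window fell within a continuous range of regions. The regions nearest to 2 kb lay with their edge 2002 bp from the start of evm.TU.CM024135.1.285 and 2003 bp from that of evm.TU.CM024148.1.366, with a fold enrichment in the 3 libraries of 5.06, 7.69 and 5.78 for the former and of 6.03, 6.01 and 5.98 for the latter. Just outside it, edges at 1997 bp from evm.TU.CM024127.1.38 and 1993 bp from evm.TU.CM024162.1.88 had folds of 7.62, 4.52 and 7.95 and of 7.55, 5.59 and 8.59. At the far limit, midpoints at 9999.5 bp from evm.TU.CM024134.1.110 and 9999 bp from evm.TU.CM024100.1.410 had folds of 5.18, 5.39 and 5.18 and of 5.85, 5.89 and 7.53. Just beyond it, midpoints at 10005.5 bp from evm.TU.CM024143.1.292 and 10006 bp from evm.TU.CM024157.1.38 had folds of 5.84, 5.82 and 5.36 and of 2.64, 3.12 and 2.98. A region just past a limit was thus of the same order of strength as one just inside it.

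Whether the upstream side of genes is special was asked by counting peaks per Mb of sequence outside every gene body and over 2 kb from every start. Such sequence is called countable here. Gaps and repeats where reads cannot be placed were not removed from it, since no genome was used. Their share may differ between upstream, downstream and distal sequence, which was not tested. Upstream of annotated starts, at 2 to 10 kb, 43.7, 38.3 and 41.8 peaks per Mb were found in Mu_E_1, Mu_E_2 and Mu_E_3. At the same distance downstream of gene ends there were 39.1, 31.7 and 36.6 per Mb. Over 20 kb from every listed gene there were 25.1, 21.0 and 23.1 per Mb. This distal level left out sequences without any listed gene, which held 3812 of the shared regions. The upstream side was denser than the downstream side in 3 of 3 libraries, by a ratio of 1.16 ± 0.05 (SD, n = 3), and denser than distal sequence by a ratio of 1.79 ± 0.04. The exact two-sided sign-flip permutation test over 3 libraries gave p = 0.25 for each ratio, the smallest value that 3 libraries can give. Regions shared by all libraries gave a ratio of 1.24 against the downstream side and of 1.83 against distal sequence. With sequence that was upstream of one gene and downstream of another left out, the ratio of upstream to downstream was 1.22 ± 0.07, with 1.17, 1.29 and 1.20 in the 3 libraries.

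Within the window the density changed little with distance. Per Mb of countable sequence, 27.98 shared regions lay at 3 to 4 kb, 25.2 at 4 to 5 kb, 27.4 at 6 to 7 kb and 26.7 at 9 to 10 kb. The value of 21.3 at 2 to 3 kb is lowered by the rule, which removes a region whose edge comes within 2 kb of a start. Beyond the window, from 10 to 20 kb, the density ran between 21.5 and 26.0 per Mb. Downstream of gene ends it ran between 17.7 and 22.8 per Mb from 2 to 10 kb. Upstream exceeded downstream in every bin of 1 kb from 2 to 20 kb, and both sides lay above the 13.2 per Mb of sequence over 20 kb from genes.

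**Figure D1:**
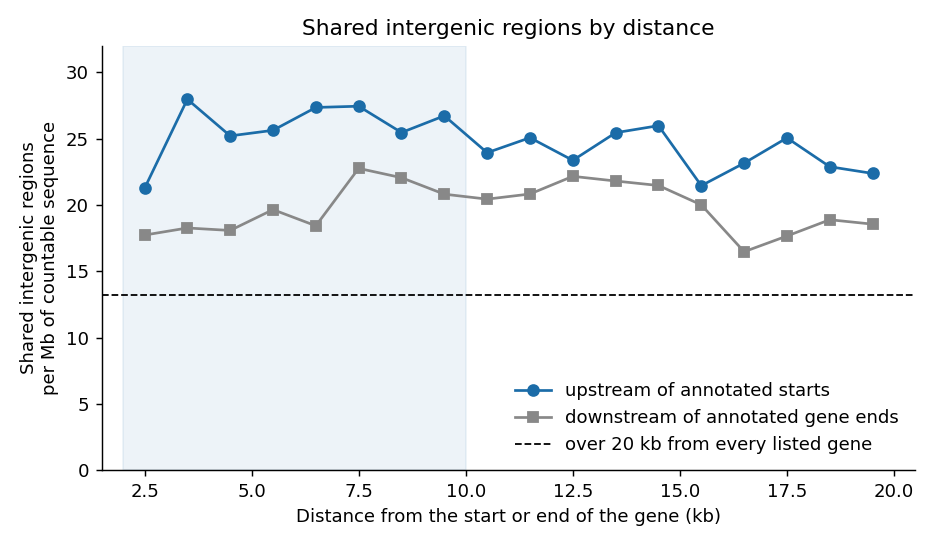
Shared intergenic regions per Mb of countable sequence (vertical axis) in bins of 1 kb by distance from annotated starts (blue circles) or gene ends (grey squares), with the level over 20 kb from every listed gene as a dashed line and the window of 2 to 10 kb shaded. The upstream line runs at 21.3 to 27.98 per Mb inside the window, above the downstream line in every bin. The dashed line, for sequences with a listed gene, is at 13.2.

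The strength of a region was described by the fold enrichment that the peak caller gave it over the local background, taking the strongest peak in the region. The medians over the upstream regions of the 3 libraries were 4.78, 4.98 and 4.96. It was 5.11, 5.30 and 5.44 for shared promoter regions, 4.64, 4.92 and 4.81 for shared regions in gene bodies and 4.92, 5.06 and 4.94 for shared distal regions. Upstream regions were therefore weaker than promoter regions in 3 of 3 libraries, by a difference of medians of -0.11 ± 0.024 on the log2 scale (SD, n = 3). The exact two-sided sign-flip permutation test gave p = 0.25, its smallest value. Promoter regions were also wider, with a median of 681 bp, and among regions of 300 to 600 bp the difference was 0.015 ± 0.019, with the direction turned. Against distal regions the difference was -0.020 ± 0.024, with different directions in different libraries and p = 0.50 in the same exact test, which is within the spread between libraries.

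Each library ranked the upstream regions in a like order. Across the 1980 regions, Spearman's rho of the fold enrichment was 0.77 for Mu_E_1 with Mu_E_2, 0.86 for Mu_E_1 with Mu_E_3 and 0.80 for the remaining pair. These describe regions, which are not independent replicates. The highest of the 3 folds was a median of 1.29 times the lowest, and in 59 regions it was over 2 times the lowest. A q-value of 1e-05 or less in every library was reached by 1465 of the 1980 regions, or 74.0%, against 76.9% of promoter regions and 69.0% of distal regions.

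**Figure D2:**
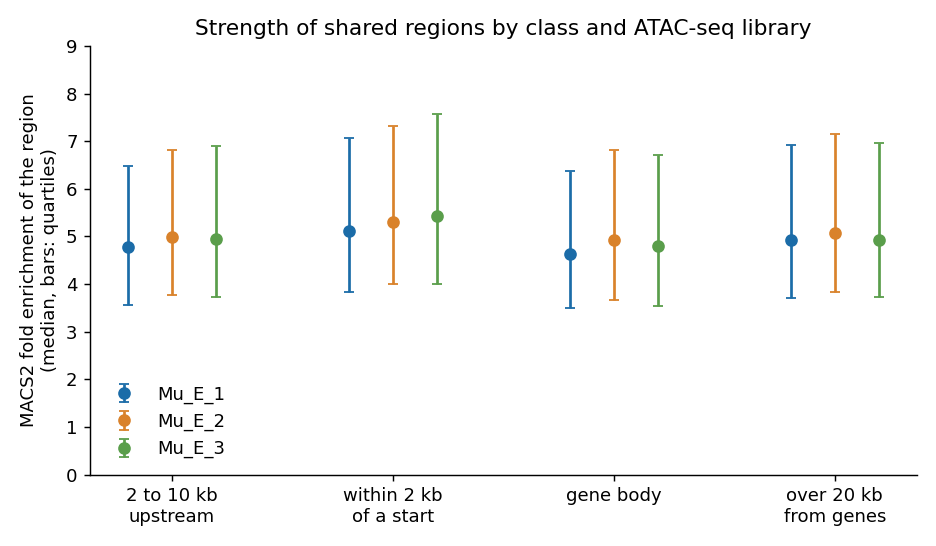
Median MACS2 fold enrichment of shared regions (vertical axis, bars from the lower to the upper quartile of regions) by class and by ATAC-seq library (colours). The medians of the upstream class are 4.78, 4.98 and 4.96 and those of the promoter class 5.11, 5.30 and 5.44, while the quartile bars of all classes overlap over most of their length.

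The strongest upstream regions were ranked by the lowest of their 3 folds. The first, the region from 2726316 to 2726702 on CM024164.1, 6558 bp upstream of evm.TU.CM024164.1.63, had a fold enrichment of 29.4, 26.5 and 25.1 in the 3 libraries. That gene was expressed, at an FPKM of 30.1, 23.7 and 60.6. The next 5 by the lowest of the 3 libraries' folds lay upstream of evm.TU.CM024102.1.59, evm.TU.CM024159.1.144, evm.TU.CM024166.1.635, evm.TU.CM024114.1.49 and evm.TU.CM024128.1.128. In that order their midpoints lay 9907.5, 8828.5, 8003, 9446 and 4646 bp from the start, with folds from 16.7 to 21.8. Of these 5 genes, 4 were listed at an FPKM of 0 in all libraries, and evm.TU.CM024159.1.144 had 0.10, 0 and 0.03. None of the 5 had a shared region within 2 kb of its start. By this ranking, 5 of the 6 strongest upstream sites lay upstream of a gene at or near an FPKM of 0, and 4 of the 6 upstream of a gene at 0 in all libraries. Among all annotated genes with an upstream region, 17.1% were listed at an FPKM of 0 in all libraries. The lower quartile of their FPKM was 0.177, 0.108 and 0.176 in the 3 libraries, so low values were common among them.

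Over all genes with a single region, strength and level showed no such order. Genes with exactly 1 upstream region were put into 4 equal groups of 376 by the strength of that region, taken as the lowest of its 3 folds. In Mu_E_1 the median FPKM was 2.02, 2.19, 2.93 and 2.76 from the weakest to the strongest group. In Mu_E_2 it was 2.18, 2.23, 2.59 and 2.19, and in Mu_E_3 1.74, 2.05, 2.98 and 2.27. Among the 76 genes whose region had a fold over 10 in every library, it was 3.04, 2.83 and 2.05. Across the 1507 genes with exactly 1 region, Spearman's rho of fold and FPKM was -0.01, 0.04 and 0.07 in the 3 libraries. The medians of the groups overlapped and kept no single order over the 3 libraries.

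The presence of a region did go with the level of the gene. An upstream region was found for 1906 of the 21314 annotated genes, or 8.94%. Comparisons of FPKM were limited to the 14757 annotated genes with at least 1 kb of countable sequence at 2 to 10 kb upstream, since a gene without such sequence could hardly have a region. The 1903 such genes with a region had a median FPKM of 3.03, 2.57 and 2.53 in Mu_E_1, Mu_E_2 and Mu_E_3. The 12854 genes without one had a median of 0.435, 0.334 and 0.356. As log2(FPKM + 1), the medians differed by 1.49, 1.42 and 1.38, on average by 1.43 ± 0.057 (SD, n = 3 libraries). The difference was positive in 3 of 3 libraries and larger than the spread between them, and the exact two-sided sign-flip permutation test gave p = 0.25, its smallest value. The same gene groups were scored in each RNA-seq library. The spread here and in the FPKM differences below therefore leaves out uncertainty about which genes or peaks fall in a group. Because many genes lie near 0, the size of the difference depended on the scale: it was 2.56 with a pseudocount of 0.1, 0.52 with one of 5, and 0.71 with genes under an FPKM of 1 in every library left out. When the recovered fragments themselves set the depth it was 1.24 ± 0.33, so the close agreement of the libraries was not kept on that scale.

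Of the genes with an upstream region, 1060 of 1903, or 55.7%, reached an FPKM of 1 in each of the 3 libraries. This level was reached by 4324 of the 12854 genes without one, or 33.6%, and by 36.5% of all 14757 countable genes. At the other end, 326 of the genes with a region, or 17.1%, were listed at an FPKM of 0 in all 3 libraries, against 30.9% of the genes without one. The exon length of the genes was alike, with medians of 1071 and 1068 bases, and so was the span on the genome, with 7181 and 8034 bp. On numbered chromosomes lay 91.9% of the genes with a region and 97.0% of those without one. More of the genes with an upstream region also had a shared region within 2 kb of their start, 37.9% against 25.1%.

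The level was stepwise higher with the number of regions. Exactly 1 upstream region was found for 1507 genes, 2 for 321, 3 for 62, 4 for 12, 5 for 2 and 6 for 2. With 1 region the median FPKM was 2.44, 2.23 and 2.23 in the 3 libraries. With 2 regions it was 5.06, 4.44 and 4.10, with 3 regions 10.7, 11.6 and 11.2, and with 4 or more 20.0, 16.5 and 18.7, although the last group holds only 16 genes. Each step was in the same direction in each library. Genes with 2 or more regions were above genes with 1 by 1.16, 0.96 and 0.86 on the log2(FPKM + 1) scale, a mean of 1.00 ± 0.15 (SD, n = 3), with an exact sign-flip p of 0.25. Regions chosen without Mu_E_2, and so touched by the other 2 libraries, gave 0.60, a pseudocount of 5 gave 0.54, and genes with an FPKM of 1 or more in some library gave 0.65. Detection at an FPKM of 1 in every library went up as well, from 53.3% of the genes with 1 region to 63.2% with 2, 69.4% with 3 and 12 of 16 genes with 4 or more. Spearman's rho of number and FPKM across the 14757 genes was 0.17 in each library, a weak relation across genes, which are not independent replicates.

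**Figure D3:**
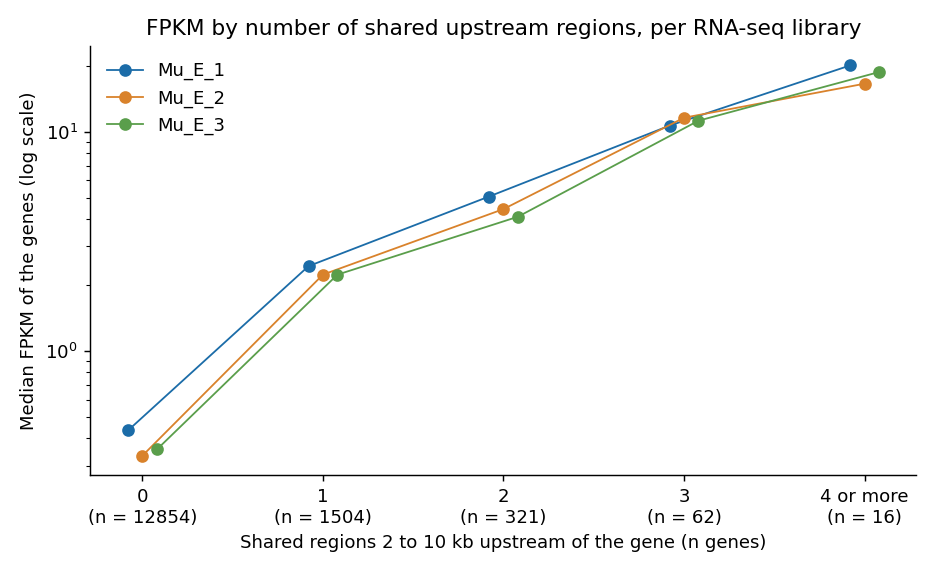
Median FPKM (vertical axis, log scale) of annotated genes with 0, 1, 2, 3 and 4 or more shared upstream regions, one line per RNA-seq library, with the number of genes under each group. The medians run from 0.334 to 0.435 without a region to 16.5 to 20.0 with 4 or more, and the 3 libraries keep the same order of groups.

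Read the other way, the share of genes with an upstream region grew with the gene's level. Genes listed at 0 in all libraries had a region in 7.58% of cases, or 326 of 4300. The expressed countable genes were put into 10 equal groups by mean FPKM. The lowest group, up to an FPKM of 0.108, had a region in 6.69% of cases, the middle groups in 13.1% to 16.2% (groups 4 to 7), and the highest group, from an FPKM of 37.1 upward, in 28.5%. At least 2 regions were found for 8.80% of the highest group and 1.42% of the genes at 0. Per Mb of countable upstream sequence there were 70.0 regions in the highest group and 13.3 in the genes at 0, with each region counted for every gene it lies upstream of. The share of genes with a shared region within 2 kb of the start went from 8.47% to 58.7% over the same groups.

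**Figure D4:**
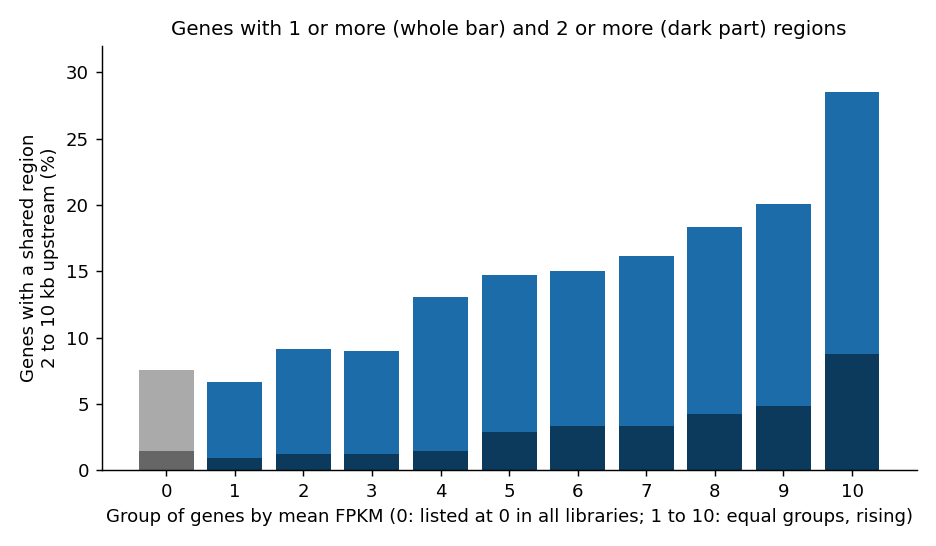
Percent of annotated genes with at least 1 (whole bar) and at least 2 (dark part) shared upstream regions, for genes listed at 0 (grey) and 10 equal groups of expressed genes by rising mean FPKM. The whole bar is 7.58% for genes at 0 and 28.5% for the highest group.

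Since genes with an upstream region more often had a promoter region than genes without one, the difference was taken within each promoter class. Among genes without a shared region within 2 kb of the start, 1181 genes with an upstream region had a median FPKM of 1.97, 1.72 and 1.83, and 9630 genes without one had 0.041, 0 and 0.076. The difference was 1.45 ± 0.06 on the log2(FPKM + 1) scale. Some of these genes may have a transcription start upstream of the listed one, which was not tested. Among genes with such a promoter region, 722 genes with an upstream region had a median of 6.40, 5.90 and 5.38, and 3224 genes without one had 4.05, 3.54 and 3.72. The difference was 0.53 ± 0.088. Both were positive in 3 of 3 libraries, with an exact sign-flip p of 0.25 each. In the class with a promoter region, the share of genes listed at 0 in all libraries ran the other way, with 99 of 722 genes, or 13.7%, with an upstream region and 265 of 3224, or 8.22%, without one. With genes under an FPKM of 1 in every library left out, the differences were 0.92 with and 0.65 without a promoter region, so the order of these classes turned. Pseudocounts of 0.1 and 5 gave 3.84 and 0.44 without a promoter region and 0.63 and 0.31 with one, and numbered chromosomes alone gave 0.95 with one. In the class with a promoter region, 88.4% of genes with an upstream region and 96.1% of those without lay on numbered chromosomes. A promoter region in genes with no upstream region went with a difference of 2.20 ± 0.07. The number of upstream regions kept its order in both classes, with 2 or more above 1 by 1.15 ± 0.25 without and 0.45 ± 0.07 with a promoter region.

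More upstream sequence gives more room for a region, and the difference held at each amount of room. It was 1.26 ± 0.08 in the 4919 genes with 1000 to 5516 bp of countable sequence in the window, 1.31 ± 0.08 in the 1587 genes with more but less than all of it, and 1.60 ± 0.14 in the 8251 genes with the full 8 kb. Genes with 2 or more regions were above genes with 1 by 0.75 ± 0.09, 0.79 ± 0.43 and 1.16 ± 0.10 in the same order, all positive in 3 of 3 libraries.

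The same difference was then taken for regions downstream of genes. Among 10296 genes with at least 1 kb of countable sequence on both sides, 1232 had a shared region 2 to 10 kb upstream and 916 had one 2 to 10 kb downstream of their end. Taken as log2(FPKM + 1), the difference was 1.38 ± 0.11 for the upstream and 0.57 ± 0.02 for the downstream side. The upstream difference exceeded the downstream one by 0.79, 0.91 and 0.74 in the 3 libraries, a mean of 0.81 ± 0.09, with an exact sign-flip p of 0.25. The 1032 genes with a region upstream alone were above genes with neither by 1.51 ± 0.12, and the 716 genes with a region downstream alone by 0.69 ± 0.08.

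A further look took single upstream regions and the annotated genes on each side of them. In 213 pairs, the region lay 2 to 10 kb upstream of one gene and 2 to 10 kb beyond the end of another, with no listed gene in between. The gene whose start faced the region was the higher one in 54.0%, 53.5% and 55.9% of the pairs in the 3 libraries, and the gene whose end faced it in 36.6%, 37.1% and 37.1%, with the remaining pairs tied at 0. The median difference within pairs was 0.42 ± 0.13 on the log2(FPKM + 1) scale. Among 1199 neighbouring pairs in the same arrangement with no shared region in the gap, the gene with its start to the gap was higher in 32.5%, 32.5% and 35.4% and the other gene in 40.9%, 37.9% and 40.5%. The median difference within these pairs was 0 in each library. The gene facing the gap with its start was thus more often the higher one in gaps with an upstream region and less often in gaps without a shared region, in 3 of 3 libraries, while the median moved only from 0 to 0.42. These pairs were compared after the differences above had been seen.

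Distance within the window and agreement between animals also went with the level. Of the genes with exactly 1 region, those with it at 2 to 4 kb had a median FPKM of 3.98, 3.16 and 3.06. At 4 to 6 kb the medians were 1.97, 1.85 and 1.78, at 6 to 8 kb 2.12, 2.04 and 1.91, and at 8 to 10 kb 2.45, 2.00 and 1.96. The nearest class stood above the others in each library, by 0.48 ± 0.04 on the log2(FPKM + 1) scale over the farthest, and the 3 farther classes did not keep 1 order. Genes whose upstream regions were touched by no more than 1 library had a median FPKM of 1.26, 0.972 and 1.06, and those with a region in 2 libraries 1.42, 1.14 and 0.974. Both lay between the genes with no upstream region in any library, at 0.359, 0.263 and 0.281, and the genes with a region in all 3. The step from 1 library to 3 was 0.82 ± 0.04.

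The genes with the most upstream regions are shown by the map of region positions. On CM024146.1, the gene evm.TU.CM024146.1.597 runs from 20763927 to 20781135 on the minus strand and had 6 regions, at 3443, 4276, 5400, 6246, 8596 and 9554 bp upstream. In the 3 crabs its FPKM came to 50.8, 31.9 and 29.6, with 117, 70 and 187 fragments behind them. The 6 regions were weak, with folds from 1.88 to 4.65 over the libraries, and the gene had no shared region within 2 kb of its start. The other gene with 6 regions, evm.TU.CM024135.1.219 (9500457 to 9505337, plus strand), had an FPKM of 13.8, 7.75 and 1.34 from only 15, 8 and 4 fragments, so its level is uncertain.

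Of the genes with 5 regions, evm.TU.CM024143.1.310 (13180134 to 13191819, plus strand) had an FPKM of 25.6, 16.4 and 7.80, and its regions fell into a near set of 3 at 2746 to 3833 bp and a far pair at 8414 and 9450 bp. The nearest region had folds of 5.93, 5.45 and 7.29, and the one at 8414 bp had 5.09, 5.81 and 5.71, so the former was the strongest in Mu_E_1 and Mu_E_3 and the latter in Mu_E_2. For evm.TU.CM024118.1.494 (18917493 to 18923424, minus strand) the FPKM was 2.96, 1.86 and 0.43, from 20, 12 and 8 fragments. The 5 regions of that gene included one at 7220 bp with folds of 7.50, 6.78 and 5.44, above the other 4. In all 4 of these genes no shared region lay within 2 kb of the start.

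Among the 12 genes with 4 regions, the highest was evm.TU.CM024135.1.459 (17099460 to 17116076, plus strand), at an FPKM of 700.2, 816.2 and 164.0. Its 4 regions lay between 5765 and 9689 bp upstream, with folds from 3.07 to 5.12, and no shared region lay within 2 kb of its start. The next, evm.TU.CM024110.1.80 (2393913 to 2420983, minus strand), was at 457.5, 479.4 and 112.7, with regions from 4396 to 8454 bp upstream and a promoter region as well. The 16 genes with 4 or more regions are not all independent: evm.TU.CM024134.1.346 and evm.TU.CM024134.1.347 share the same 4 regions, evm.TU.CM024113.1.143 and evm.TU.CM024113.1.144 share 4, and evm.TU.CM024123.1.4 and evm.TU.CM024123.1.5 lie head to head around 4. One of the 16, evm.TU.JACDRO010001224.1.1, was listed at an FPKM of 0 in all libraries.

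Regions of genes with many were weaker and narrower. The median fold enrichment in the 3 libraries was 5.05, 5.27 and 5.23 for regions of genes with 1, 4.56, 4.74 and 4.74 with 2, 4.03, 4.19 and 4.37 with 3, and 3.41, 3.32 and 3.12 with 4 or more. The order was the same in each library, and the median width went from 609 to 560, 462 and 452 bp.

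**Figure D5:**
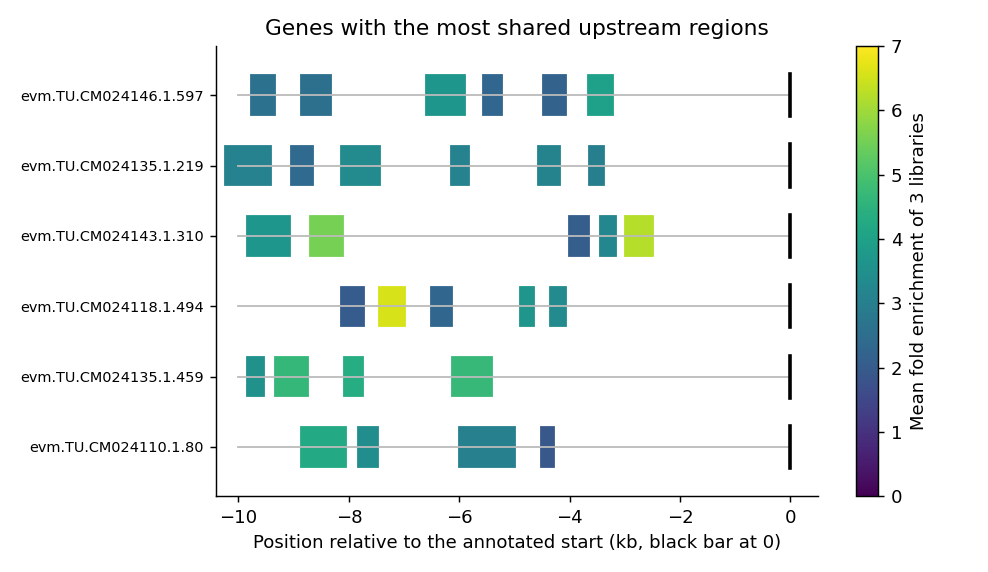
Shared upstream regions (boxes to scale) of the 6 genes with the most, by position relative to the annotated start (horizontal axis, kb, black bar at 0), coloured by the mean fold enrichment of the 3 libraries. The regions run from 2746 to 9826 bp upstream by their midpoints, and only the genes evm.TU.CM024143.1.310 and evm.TU.CM024118.1.494 have a region of a mean fold over 6.

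At the top of the expression range, the 6 genes with an upstream region and the highest mean FPKM had 1 to 3 regions each. The highest was evm.TU.CM024154.1.286 (8892406 to 8959396, plus strand), at an FPKM of 62075, 82719 and 11876, which is up to 3.32% of a library's fragments. Its single region at 4595 bp was 1591 bp wide, with 4, 2 and 4 summits and folds of 6.10, 10.1 and 6.20. The gene evm.TU.CM024107.1.221 (4262482 to 4274450, plus strand), at 18283, 21370 and 6584, had regions at 2646 and 9610 bp. A single region at 8177 bp stood upstream of evm.TU.CM024167.1.147 (4742331 to 4784686, plus strand), at 13038, 14281 and 1641.

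The neighbours evm.TU.CM024117.1.149 and evm.TU.CM024117.1.150 on the plus strand of CM024117.1 share 3 regions, from 5207619 to 5211304. These lie 3563, 4335 and 6628 bp upstream of the former and 5878, 6650 and 8942 bp upstream of the latter, with the former gene in between. The FPKM was 7525, 28006 and 6858 for the former and 9871, 39685 and 11385 for the latter. Mu_E_2 was the highest library for both, in FPKM and in fragments. The gene evm.TU.CM024099.1.44 (818904 to 850747, plus strand) was also highest in Mu_E_2, at 3331, 17195 and 3120, with regions at 2372 and 8462 bp upstream. For these 3 genes Mu_E_2 was over 3-fold above Mu_E_1 in FPKM, while the folds of their regions in Mu_E_2 were between 1.93 and 5.31, above the other libraries for some regions and below them for others. Of the 6 genes, 5 also had a shared region within 2 kb of the start, the exception being evm.TU.CM024117.1.150.

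None of the 7 candidate genes that the study names and that are reported here had a shared region 2 to 10 kb upstream, beside 8.94% of all annotated genes. All 7 had the full 8 kb of countable sequence there, and of the 8251 annotated genes with that much, 14.9% had a region. No test was run on these 7 genes. They are FMRFaR, named for a receptor of FMRFamide peptides, moody, known in Drosophila for its role at the blood-brain barrier, and the somatostatin receptor SSTR2. Also among them are mth2 of the methuselah family, gpr161, a receptor that acts in the hedgehog pathway of mice and zebrafish, the glutamate receptor GRM7 and Kpna6. The name Kpna6 is that of a karyopherin alpha of nuclear import, whereas the study predicts 7 transmembrane helices for this gene and lists it as a receptor. The nearest to having one was gpr161 (evm.TU.CM024164.1.176), with a shared region 10.2 kb upstream, just outside the window. The nearest shared region upstream of the start was at 63.5 kb for FMRFaR (evm.TU.CM024127.1.244), 24.6 kb for moody (evm.TU.CM024100.1.415) and for SSTR2 (evm.TU.CM024152.1.288), and 25.1 kb for GRM7 (evm.TU.CM024146.1.116). For mth2 (evm.TU.CM024134.1.314) and Kpna6 (evm.TU.CM024137.1.63) it lay within the promoter, at 0.054 and 0.25 kb. SSTR2 also had a shared region within 2 kb of its start, on the side of the gene.

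The study's lists of genes with differential expression and an assigned differential peak between periods were compared by identifier alone. Of the 327 genes listed as up-regulated from the pre-molt to the molt period, 74 had an upstream region, or 22.6%, and of the 164 listed as down-regulated 26 had one, or 15.9%. Of the genes listed from the molt to the post-molt period, 8 of 24 down-regulated genes had one, or 33.3%, and 7 of 60 up-regulated genes, or 11.7%. Between the periods after the molt and between molts (A and C), 69 of 451 down-regulated genes and 8 of 40 up-regulated genes had one, or 15.3% and 20.0%. Between periods C and D, the lists of 12 and 5 genes held 4 and 1 with a region. The share among all annotated genes was 8.94%. The study chose these genes partly on the libraries used here and on peaks assigned to them, so the shares are not independent evidence, and the lists also differ in level, with a median FPKM in Mu_E_1 of 59.2 for the first of them and of 0.988 for all annotated genes.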

How the data were processed

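For ATAC-seq, the authors aligned reads with BWA, filtered them on mapping quality, pairing and mitochondrial origin, and ran MACS2 on every sample separately. Per peak, the deposited lists hold a fold enrichment (ratio over background) by the authors and a q-value as −log10. RNA-seq reads were aligned by the authors with HISAT2 2.0.5 and counted with featureCounts 1.5.0-p3, and the deposited table gives FPKM. A read shift for the transposase and the annotation version are not given in the sources used here. No genome of the files' build was used here, so no region sequence is shown.

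Distinct intervals were merged across libraries where they overlapped by at least 1 bp, with Python 3.11.15, numpy 2.4.6 and pandas 2.3.3, and plotted with matplotlib 3.10.9. Sequence ends were the largest listed coordinates. Positions are 1-based, in the assembly of the study. Region classes were, in order, within 2 kb of a start, in a gene body, upstream, on a sequence without a listed gene, over 20 kb from genes, and other intergenic. FPKM were compared as medians of log2(FPKM + 1) in each library, with the mean and SD over 3 libraries and an exact two-sided sign-flip permutation test, whose smallest p is 0.25. Genes and regions were not treated as replicates. FPKM times gene length came in whole steps (tolerance 0.05 of a fragment) for 100% of values above 0, which gave the fragments. The merging, placing and fragment steps were tested on simulated data.

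Named were the 6 genes with the most regions, the 6 with a region and the highest FPKM, the 6 strongest regions, the regions at the limits of the window and the study's candidate receptors, of which 1 is not reported here. Other genes with 4 regions were named after their values were seen. The regions and lists were chosen with earlier results of these data known. The downstream, neighbour, distance, strength and library-number comparisons of FPKM were added after the data were examined. Alternatives covered the peak threshold, overlap, gene set, intervening genes, distance, chromosomes, width, pseudocount, filters, scaling and leaving out each library.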

Additional observations from a re-analysis of the deposited data

How the results depend on the processing

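The direction held under each alternative run for the density ratio of upstream to downstream and for 4 FPKM differences (with against without a region, 2 or more against 1, and within each class of promoter), while the fold difference from promoter regions turned to 0.015 among regions of 300 to 600 bp. The count of 1980 regions was 847 for midpoints at 2 to 5 kb and 1316 at 5 to 10 kb, which are narrower windows, and ran from 1464 to 2572 elsewhere. The density ratio was 1.24 on shared regions, 1.27 at a q-value of 1e-05 or less and 1.31 with the stricter overlap of peaks. The fold difference from promoter regions was -0.052 with the mean of a region's peaks and -0.14 at 2 to 5 kb, and ran from -0.13 to -0.10 with a library left out. That from distal regions was -0.088 at the stricter q-value, -0.048 with the stricter overlap and -0.058 at 2 to 5 kb.

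The difference between genes with and without a region was 2.56 with a pseudocount of 0.1, 0.52 with 5, 0.71 with the filter on low FPKM, 1.04 over all annotated genes, 1.24 with FPKM on each library's own fragments, 1.72 at the stricter q-value, 1.57 with the stricter overlap, 1.34 with no gene between, 1.63 at 2 to 5 kb, 1.49 at 5 to 10 kb and 1.63 on numbered chromosomes. With a library left out it ran from 1.33 to 1.45. Between 2 or more regions and 1 the values were, for the pseudocounts 1.24 and 0.54, the filter 0.65, the stricter q-value 1.35, annotated genes alone 0.75, the 2 distance windows 1.26 and 1.23, and numbered chromosomes 1.19. With a library left out they ran from 0.60 to 1.06.

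In genes with a promoter region the difference was 0.63 and 0.31 with the pseudocounts, 0.92 with the filter, 0.67 at 2 to 5 kb and 0.95 on numbered chromosomes. In genes without one it was 3.84 and 0.44 with the pseudocounts, 0.65 with the filter, 1.17 over all annotated genes, 1.23 on own fragments, 1.66 at the stricter q-value, 1.54 with the stricter overlap, 1.38 for annotated genes alone, 1.20 with no gene between, 1.62 at 2 to 5 kb and 1.55 on numbered chromosomes, and it ran from 1.27 to 1.48 with a library left out. On own fragments the SD of the main FPKM difference was 0.33, against 0.057. The cause of these shifts was not tested beyond what each setting changes by construction. The comparisons by room, downstream side, neighbours, distance and number of libraries, and the ratio to distal sequence, were run under no alternative. No paired analysis was possible because the samples have 1 condition, so no sample groups were compared that a replicate block could join. This concerns conditions only, since 1 ATAC-seq and 1 RNA-seq library came from each crab. The FPKM and folds of the same crab were set beside each other only for evm.TU.CM024117.1.149, evm.TU.CM024117.1.150 and evm.TU.CM024099.1.44. Whether a crab's peaks go with its own FPKM was not tested. A peak under the caller's threshold in 1 library removes a region, so depth limits the count. Mu_E_2 had the fewest peaks, 44610, and by the paper the fewest mapped ATAC-seq reads. Without Mu_E_2 the rule gave 2572 regions, against 2213 without Mu_E_1 and 2231 without Mu_E_3.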

Other observations

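The 7357 further genes listed beside the annotated ones are called added genes here, and shared regions upstream of these were looked at separately. Shared intergenic regions 2 to 10 kb upstream of an added gene's start numbered 644, of which 127 were also upstream of an annotated start. Among 4680 added genes with at least 1 kb of countable sequence, 554 had such a region, or 11.8%. The 3 libraries gave them a median FPKM of 0, 0 and 0.042, and that of the 4126 added genes without one was 0 in each library, so medians cannot show a difference here. The upper quartile was 0.844, 0.832 and 0.656 with a region and 0.649, 0.548 and 0.490 without one, higher with a region in 3 of 3 libraries. An FPKM of 1 was reached in every library by 73 of the 554 added genes with a region and by 454 of the 4126 without one. These quartiles and shares were added after the data were seen and were not tested.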
